A study of Saccharomyces cerevisiae with 27 samples.

Results

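The genes described here encode the protein disaggregase, the small heat shock proteins and the sequestrases of the yeast cytosol and nucleus, together with the stress protein Hsp31. They are HSP104 (YLL026W), HSP26 (YBR072W), HSP42 (YDR171W), BTN2 (YGR142W), CUR1 (YPR158W) and HSP31 (YDR533C), 6 of 5656 genes measured. They were found by gene symbol. Each had 1 probe set naming that gene alone, none was at the lower limit of the deposited values on any array, and all 6 entered the tests. RNA came from Saccharomyces cerevisiae X2180-1A, a laboratory strain, grown on a minimal medium with 2% glucose in aerated fermentors of 500 ml. The heat groups were taken 10, 30, 60, 120, 240 and 360 min after the water jacket brought growing cultures to 41 °C, which took at most 5 min. The control groups stayed at 28 °C and were taken at 0, 120 and 240 min, at an OD600 of 0.50, 0.88 and 1.5. There were 3 biological replicates in each of 9 groups, and every group had the same strain and medium. Labelled cRNA from 20 µg of total RNA was hybridised to 1 one-colour Affymetrix array per sample, 27 in all, so a signal is a share of the RNA and not an amount per cell.

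When proteins unfold in heat, small heat shock proteins bind them early and hold them in loose assemblies, and sequestrases gather them at defined sites in the cell. Hsp104 is a ring-shaped AAA+ ATPase that threads polypeptides out of such aggregates, and it works with Hsp70 and J-domain proteins, which then help refolding. Hsp26 forms shells that become active on warming, whereas Hsp42 acts at normal temperatures as well and directs misfolded proteins to deposits in the cytosol. Btn2 and Cur1 are related proteins that direct misfolded proteins to a deposit in the nucleus, and Cur1 also moves the J-domain protein Sis1 there. Hsp31 belongs to the DJ-1 superfamily, detoxifies methylglyoxal and has been described as a chaperone. The heat shock factor Hsf1 and the general stress factors Msn2 and Msn4 are the known activators of many of these genes, and Yap1 is a known activator of HSP31 in oxidative stress.

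Heat arrays differed from control arrays in measures besides the genes of interest. The 19 probe sets for transcripts of other organisms, a gauge of background, averaged 5.56 to 6.21 on the log2 scale in the 3 samples heated for 10 min and 5.15 to 5.71 in the 15 heated longer, against 6.05 to 6.35 in the 9 controls. For SRB4 the ratio of the 3' probe set to the 5' one, which rises with RNA breakage or short cDNA, was 2.97 to 3.39 at 10 min and 3.44 to 5.62 later, against 1.98 to 2.81 in controls. That of ACT1 was 0.947 to 1.03 at 10 min and 1.00 to 1.19 later, against 0.898 to 1.01 in controls. Their part in the results was not tested for the 3' to 5' ratios, and for background a fit with it as a term was made. The labels give no mating type, and X2180-1A is known as a strain of mating type a. Of the a-cell genes, signals on heat and on control arrays were 194 to 1911 and 111 to 160 for the pheromone gene MFA1, 260 to 1015 and 401 to 508 for the pheromone gene MFA2, 67.9 to 276 and 50.7 to 93.9 for the receptor gene STE2, and 70.5 to 284 and 43.3 to 56.3 for the protease gene BAR1. Of the alpha-cell genes, they were 199 to 981 and 862 to 1149 for the pheromone gene MF(ALPHA)1, 54.3 to 174 and 102 to 168 for MF(ALPHA)2, and 47.8 to 156 and 31.0 to 54.5 for the receptor gene STE3. The low control signals of MFA1, STE2 and BAR1 and the high ones of MF(ALPHA)1 go against mating type a. Those of MFA2, MF(ALPHA)2 and STE3 do not, and the mating type of these cultures is in doubt.

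All 6 genes were higher at every heat time than in the controls at 0 min, and the 18 heat arrays lay above the 9 control arrays for each gene. Signals are given after quantile normalization, and a log2 fold is the difference of log2(signal + 113.81) ± SE from limma, with p-values adjusted over all tested genes by the Benjamini-Hochberg method and 0.05 as the threshold. After 10 min, 6 of 6 passed the test as higher, where 33.8% of all tested genes did, and 6 of 6 were higher at least 2-fold, where 8.06% of all did. The median log2 fold of the 6 was 3.37 after 10 min, 3.49 after 30 min, 2.95 after 60 min, 2.85 after 120 min, 2.64 after 240 min and 2.52 after 360 min. Over all tested genes the median lay between -0.04 and 0.00 at these times. The heat comparisons with 0 min share the same 3 control arrays, so their folds are not independent. In RNA of a whole culture, fewer cells with a transcript and less transcript per cell cannot be told apart.

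The count of 6 higher genes held at the later times, where a large share of all genes also passed the test. The share of tested genes called higher than at 0 min was 40.7% after 30 min, 31.8% after 60 min, 32.7% after 120 min, 29.0% after 240 min and 31.8% after 360 min. On the log2 scale with the added constant, the threshold of 2-fold was passed by 6 of 6 at 30, 60 and 120 min. At 240 and 360 min 5 of 6 passed it, CUR1 being below it. Of all tested genes, 12.9% passed it after 30 min, 5.37% after 60 min, 4.31% after 120 min, 3.77% after 240 min and 4.28% after 360 min. The constant lowers the fold of CUR1, whose ratio of mean signals at 360 min over 0 min was 2.23. Against controls of the same time CUR1 was above 2-fold at 240 min, with a log2 fold of 1.12 ± 0.11. The split of all calls depended on the scaling. In the values as deposited, 58.4%, 65.1%, 62.3% and 64.9% of the genes called at 60, 120, 240 and 360 min were higher, against 46.0%, 47.4%, 46.0% and 47.5% after quantile normalization. With quantiles taken over all probe sets the share at 240 min was 57.0%. In the deposited scaling the median of all genes shifted by 0.10 to 0.15 at these times.

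**Figure D1:**
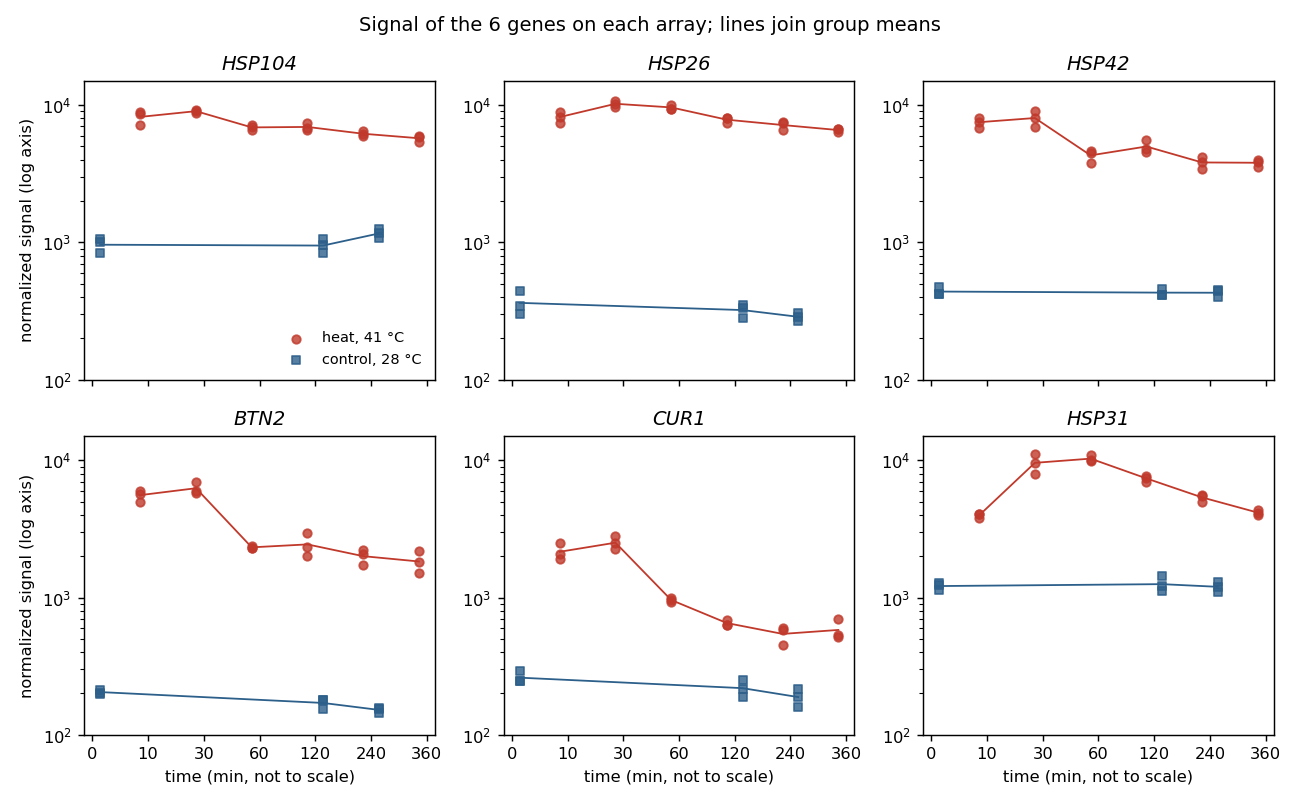
Normalized signal (log axis) of each of the 6 genes on each of the 27 arrays, by time in minutes at uneven spacing, with heat at 41 °C as circles and controls at 28 °C as squares; lines join the means of 3 arrays. Every heat array lies above every control array in all 6 panels, HSP31 has its highest mean at 60 min and the other 5 genes have theirs at 30 min.

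HSP104, the disaggregase gene, was higher in every heat group than in the controls, and most so at 10 and 30 min. On the heat arrays the signal of HSP104 was 8573, 7230.3 and 8847 at 10 min, 9092, 8777 and 9273 at 30 min and 6889, 7230.3 and 6547 at 60 min. Later in the heat it was 6626, 6769.7 and 7429.8 at 120 min, 6134, 5948 and 6498 at 240 min and 5347, 5968 and 5910.4 at 360 min. On the control arrays it was 998, 831 and 1055 at 0 min, 838, 1055 and 949.9 at 120 min and 1068, 1172 and 1242 at 240 min. The lowest heat array, with 5347, was far above the highest control array, with 1242. The log2 fold over 0 min was 2.95 ± 0.09 at 10 min (adjusted p = 8.05e-19), 3.10 ± 0.09 at 30 min and 2.45 ± 0.09 at 360 min (adjusted p = 9.27e-17). Its mean at 360 min was 63.5% of that at 30 min. Between successive times only the step at 60 min against 30 min passed the test, with a log2 difference of -0.39 ± 0.09 (adjusted p = 0.000345). Beside this step, the differences at 30 against 10 min (0.14 ± 0.09, 95% interval -0.04 to 0.32), at 120 against 60 min (0.01 ± 0.09, -0.17 to 0.19), at 240 against 120 min (-0.16 ± 0.09, -0.34 to 0.02) and at 360 against 240 min (-0.11 ± 0.09, -0.29 to 0.07) did not pass. The difference at 360 against 10 min was -0.50 ± 0.09 (adjusted p = 1.55e-05). In rank of fold over 0 min among 5656 genes, HSP104 was number 38 from the top after 10 min, 59 after 30 min and 24 after 360 min.

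HSP26, a small heat shock protein gene, had the highest log2 fold of the 6 at 30 min and every later time, with the added constant. At 30 min this order rests on the constant. The ratio of mean signals over 0 min was then 30.6 for BTN2 and 28.3 for HSP26. On the heat arrays the signal of HSP26 was 8241, 7363 and 8971 at 10 min, 10264, 9757 and 10694 at 30 min and 9415, 9415 and 10076 at 60 min. Later in the heat it was 7363, 8077 and 8077 at 120 min, 6599, 7398 and 7509.9 at 240 min and 6393, 6712 and 6652 at 360 min. On the control arrays it was 302, 346 and 439 at 0 min, 330.3, 281 and 352 at 120 min and 287, 307 and 266 at 240 min. The signal was high at 30 and 60 min, whose arrays overlapped, and lower in the groups on either side. The log2 fold over 0 min was 4.45 ± 0.09 at 30 min (adjusted p = 6.71e-22) and 3.82 ± 0.09 at 360 min (adjusted p = 4.19e-20). Its mean was 10238 ± 469 (SD, n = 3) at 30 min against 362 ± 69.8 in controls at 0 min, a ratio of 28.3. At 360 min it was still 64.3% of that mean. HSP26 rose at 30 against 10 min (0.32 ± 0.09, adjusted p = 0.00298) and fell at 120 against 60 min (-0.29 ± 0.09, adjusted p = 0.012). Both small steps depended on the processing. The rise was not called with arrays scaled to a common median (0.21) or with background as a term (0.26), and the fall was not called in the values as deposited (-0.21), without replicate 3 at 60 min (-0.26) or without replicate 1 at 120 min (-0.25). Its fold over 0 min ranked 7 after 10 min, 10 after 30 min, 3 at 60 and 120 min and 2 at 240 and 360 min among 5656 genes.

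HSP42, the second small heat shock protein gene, stood after 10 min at 93.2% of its highest heat mean and had declined further than HSP26 by 360 min. On the heat arrays the signal of HSP42 was 7589.8, 6834 and 8126 at 10 min, 6972, 8126 and 9092 at 30 min and 4670.1, 3791 and 4461 at 60 min. Later in the heat it was 4583, 4801 and 5614 at 120 min, 3430.3, 4169 and 3876 at 240 min and 3876, 3526 and 4011 at 360 min. On the control arrays it was 419.9, 419 and 475 at 0 min, 461, 416 and 414 at 120 min and 439, 447 and 403 at 240 min. All arrays from 60 min on lay below all arrays at 10 and 30 min, and above all control arrays. Its log2 fold was 3.79 ± 0.10 at 10 min (adjusted p = 1.35e-19), 3.88 ± 0.10 at 30 min and 2.83 ± 0.10 at 360 min (adjusted p = 7.33e-17). The difference at 60 against 30 min was -0.88 ± 0.10 (adjusted p = 2.86e-08). At 120 against 60 min the difference was 0.21 ± 0.10 with an interval of 0.01 to 0.41 (adjusted p = 0.103), with 2 of 3 replicate numbers higher. A second fall followed at 240 against 120 min (-0.38 ± 0.10, adjusted p = 0.00787). It was not called without replicate 3 at 120 min (-0.29), without replicate 1 at 240 min (-0.30) or in a fit of those groups alone. The mean at 360 min was 47.2% of that at 30 min.

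The courses of the small heat shock protein genes were set side by side through the difference of their log2 values on each array. The difference HSP26 minus HSP42 averaged 0.78 ± 0.11 at 360 min and 0.12 ± 0.02 at 10 min (SD, n = 3 each), a change of 0.65 with no overlap between the groups. The exact two-sided permutation test gave p = 0.1, the smallest that 3 against 3 arrays allow, and 0.2 after adjustment over the 2 pairs tested in this way, so this test cannot reach the threshold with 3 arrays a group, whatever the size of the change.

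BTN2, a sequestrase gene, was high at 10 and 30 min of heat and much lower, though above controls, from 60 min on. On the heat arrays the signal of BTN2 was 5739, 5014 and 6006 at 10 min, 6006, 5811 and 7001 at 30 min and 2290.3, 2299 and 2386 at 60 min. Later in the heat it was 2018, 2349 and 2961 at 120 min, 1725, 2216 and 2074 at 240 min and 1506, 2178 and 1819 at 360 min. On the control arrays it was 199, 214 and 202 at 0 min, 179, 180.0 and 153 at 120 min and 145, 156 and 154 at 240 min. The arrays at 10 and 30 min, the lowest with 5014, were separate from the later heat arrays, the highest with 2961. The log2 fold over 0 min was 4.16 ± 0.12 at 10 min (adjusted p = 5.35e-19) and 4.32 ± 0.12 at 30 min. The difference at 60 against 30 min was -1.38 ± 0.12 (adjusted p = 3.44e-10). After it, BTN2 changed by 0.05 ± 0.12 at 120 against 60 min (95% interval -0.19 to 0.30), by -0.26 ± 0.12 at 240 against 120 min (-0.51 to -0.02) and by -0.13 ± 0.12 at 360 against 240 min (-0.37 to 0.12), none of which passed the test. The middle one was called in the values as deposited (-0.34), with a common median (-0.29) and without replicate 1 at 120 min (-0.39). At 360 min the mean was 29.2% of that at 30 min and still 8.96 times that of the controls at 0 min (log2 fold 2.60 ± 0.12, adjusted p = 8.63e-15).

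BTN2 and CUR1 lay nearest to the background probe sets in controls. The background probe sets had a geometric mean of 66.2 to 81.4 in the deposited values of the control arrays. Beside this, deposited signals were 139 to 195 for BTN2 and 158 to 262 for CUR1, and normalized ones 145 to 214 and 158 to 291. The added constant lowers the folds of such genes. Without it, the log2 fold at 10 min was 4.77 in place of 4.16 for BTN2 and 3.04 in place of 2.59 for CUR1. The signal of BTN2 in heat over controls at 0 min, taken as a ratio of means, was 27.3 at 10 min.

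CUR1, the paralog of BTN2, had smaller folds and returned nearest to its control level. On the heat arrays the signal of CUR1 was 2062, 1898 and 2515 at 10 min, 2501, 2244 and 2797 at 30 min and 989.9, 937 and 956 at 60 min. Later in the heat it was 635, 630.2 and 692 at 120 min, 453, 596 and 583 at 240 min and 516, 532 and 695 at 360 min. On the control arrays it was 246, 291 and 246 at 0 min, 216, 252 and 188 at 120 min and 189.6, 158 and 217 at 240 min. The 3 arrays at 60 min lay below those at 10 and 30 min and above all later ones, and the heat arrays from 120 min on were low but above every control array. Its log2 fold was 2.59 ± 0.11 at 10 min (adjusted p = 9.91e-16), 2.81 ± 0.11 after 30 min, 1.52 ± 0.11 after 60 min and 1.03 ± 0.11 after 120 min, with 0.81 ± 0.11 at 240 min and 0.88 ± 0.11 at 360 min (adjusted p = 4.07e-07). At 30 against 10 min CUR1 differed by 0.21 ± 0.11 and was not called, though it was without replicate 3 at 10 min (0.32) or replicate 2 at 30 min (0.29). CUR1 fell at 60 against 30 min, with a log2 difference of -1.28 ± 0.11 (adjusted p = 5.68e-10) and again at 120 against 60 min (-0.49 ± 0.11, adjusted p = 0.00179). Later steps did not pass the test, at -0.23 ± 0.11 for 240 against 120 min (95% interval -0.46 to 0.01) and 0.08 ± 0.11 for 360 against 240 min (-0.16 to 0.31). Its mean at 360 min was 23.1% of that at 30 min. With the background level as a term the fold over 0 min was 0.28 at 240 min (adjusted p = 0.142) and 0.27 at 360 min (adjusted p = 0.222), so CUR1 lost both calls there. Background did not overlap between heat arrays from 30 min on (5.15 to 5.71) and controls (6.05 to 6.35). This fit therefore cannot tell background and heat apart at these times. Its rank among 5656 folds over 0 min was 65 at 10 min and 300 at 360 min.

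Both paralogs were lower at 360 than at 10 min, with log2 differences of -1.56 ± 0.12 for BTN2 (adjusted p = 3.84e-11) and -1.71 ± 0.11 for CUR1 (adjusted p = 3.42e-12). The difference BTN2 minus CUR1 averaged 1.48 ± 0.30 at 360 min and 1.33 ± 0.11 at 10 min (SD, n = 3 each). The change of 0.15 had an exact two-sided permutation p of 0.6, with overlapping groups. It turned to -0.02 in the values as deposited and to -0.02 without replicate 2 at 360 min, so no direction is given. This does not show that the paralogs follow the same course.

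HSP31 had its highest mean at 60 min of heat and a low one at 10 min. On the heat arrays the signal of HSP31 was 4056, 3835 and 4048 at 10 min, 8023, 11192 and 9599 at 30 min and 9910.4, 10076 and 10935 at 60 min. Later in the heat it was 7429.8, 7758 and 7001 at 120 min, 4991, 5525 and 5614 at 240 min and 4116, 4018 and 4362 at 360 min. On the control arrays it was 1129, 1233 and 1279 at 0 min, 1431, 1109 and 1221 at 120 min and 1188, 1303 and 1105 at 240 min. The arrays at 10 min and at 360 min were the lowest in heat and overlapped, while those at 30 and 60 min were the highest. Its log2 fold over 0 min was 1.63 ± 0.09 at 10 min (adjusted p = 1.8e-13), 2.86 ± 0.09 at 30 min, 2.97 ± 0.09 after 60 min (adjusted p = 6.53e-18), 2.50 ± 0.09 after 120 min, 2.05 ± 0.09 after 240 min and 1.69 ± 0.09 after 360 min. HSP31 rose at 30 against 10 min by 1.23 ± 0.09 (adjusted p = 6.67e-11), in 3 of 3 replicate numbers. The mean at 10 min was 38.6% of the highest heat mean of HSP31, while for the other 5 genes it was 80.0% to 93.2% of their own. The highest value fell at 60 min in replicates 1 and 3 and at 30 min in replicate 2, and the group means at 60 and 30 min differed by 0.11 ± 0.09 (95% interval -0.08 to 0.31). Without replicate 2 at 30 min this difference was called (0.23).

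From 60 min on HSP31 fell at each step, with log2 differences of -0.47 ± 0.09 at 120 min (adjusted p = 0.000452), -0.45 ± 0.09 at 240 min (adjusted p = 0.00121) and -0.36 ± 0.09 at 360 min (adjusted p = 0.0192). The last of these calls ended, with folds of -0.33 to -0.35, when any of replicates 2 and 3 at 240 min and 1 and 2 at 360 min was left out. Against 10 min, HSP31 at 360 min differed by 0.06 ± 0.09 (95% interval -0.13 to 0.26, adjusted p = 0.551), whereas the other 5 genes were lower at 360 min. The direction depended on the scaling, since with arrays scaled to a common median HSP31 was lower at 360 min, at -0.26 (adjusted p = 0.0279). Its rank among 5656 folds over 0 min was 194 at 10 min, 20 at 60 min and 68 at 360 min.

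**Figure D2:**
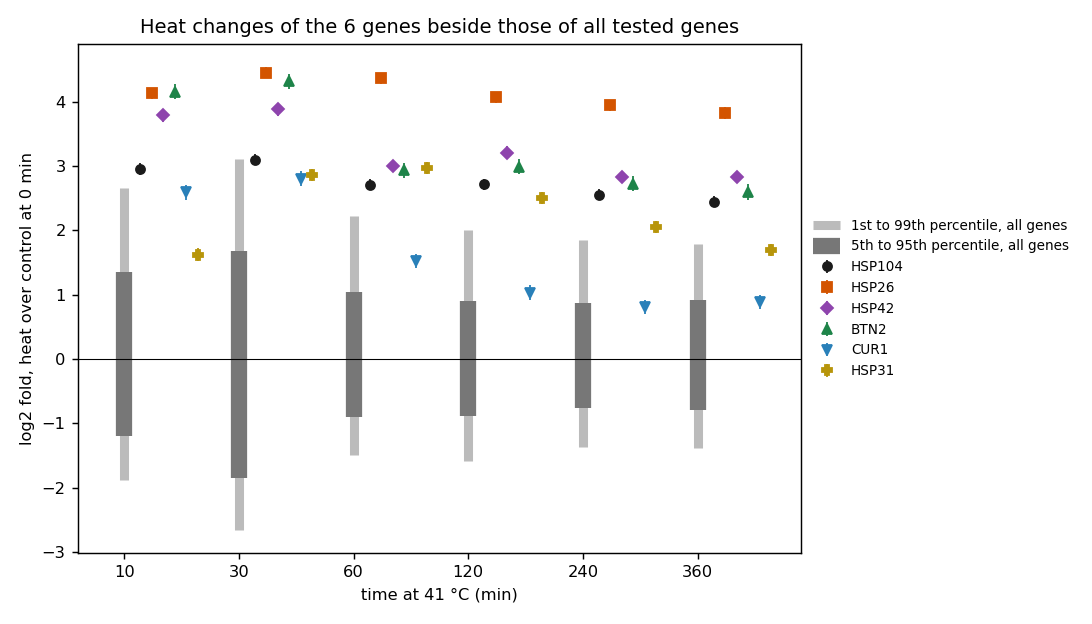
Log2 fold of heat over control at 0 min (vertical axis) for the 6 genes at each heat time in minutes (points ± SE, 3 arrays against 3), beside grey bars for the 5th to 95th and the 1st to 99th percentile of all 5656 tested genes. HSP26, HSP42 and BTN2 lie above the 99th percentile at all 6 times, HSP104 at all but 30 min, HSP31 does so from 60 to 240 min and CUR1 at none.

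Between successive times, falls were most frequent at 60 against 30 min, both among the 6 and among all tested genes. At 30 against 10 min, 2 of 6 rose (HSP26 and HSP31), where 33.5% of all tested genes did, and none fell. At 60 against 30 min, 4 of 6 fell (HSP104, HSP42, BTN2 and CUR1), where 39.4% of all genes did, and HSP26 (-0.09 ± 0.09, 95% interval -0.27 to 0.09) and HSP31 did not pass. HSP26 was called there as falling with a common median (-0.27). At 120 against 60 min, 3 of 6 fell (HSP26, CUR1 and HSP31), against 15.7% of all genes. At 240 against 120 min 2 of 6 fell (HSP42 and HSP31), against 11.0% of all, and at 360 against 240 min 1 of 6 fell (HSP31), against 4.19% of all. At 360 against 10 min, 5 of 6 were lower, against 37.0% of all genes, with median log2 differences of -0.73 for the 6 and -0.01 for all. The share of higher genes among all calls at 60 against 30 min was 61.6% in the values as deposited and 45.0% after quantile normalization, and at 360 against 10 min 64.8% and 49.1%. At the 3 steps between 60 and 360 min the corresponding pairs were 67.1% and 53.9%, 32.6% and 47.8%, and 64.2% and 48.3%.

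**Figure D3:**
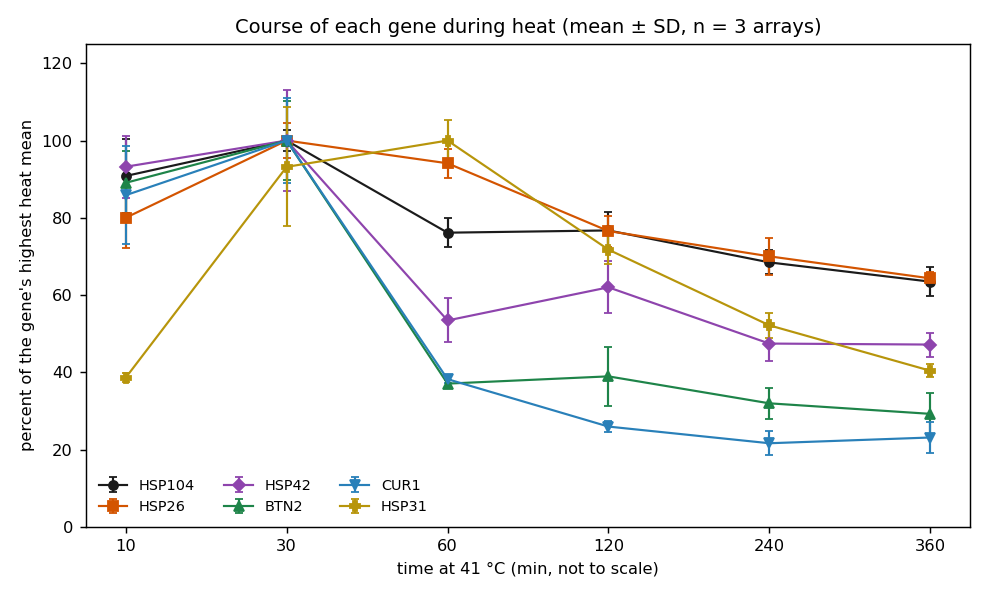
Mean normalized signal of each gene at each heat time (minutes, uneven spacing) as a percent of that gene's highest heat mean; bars are SD over 3 arrays on the same scale. At 60 min BTN2 stood at 37.1% and CUR1 at 38.2% of the highest mean, while HSP104 stood at 76.1%, HSP26 at 94.1% and HSP31 at 100%.

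The order of the 9 groups was read from the mean log2 level of each gene, with neighbours in the order compared in the same fit. For all 6 genes every heat group stood above every control group, and the lowest heat group differed from the highest control group, the smallest such gap being 0.81 ± 0.11 for CUR1 (adjusted p = 1.68e-06). For HSP104 the order was 30, 10, 120, 60, 240 and 360 min of heat, and of these neighbours 10 and 120 min alone passed the test (0.24 ± 0.09, adjusted p = 0.0189). For HSP26 it was 30, 60, 10, 120, 240 and 360 min, and 60 and 10 min alone passed (0.24 ± 0.09, adjusted p = 0.0204). HSP42 and BTN2 shared the order of HSP104, and in both 10 and 120 min alone passed, at 0.58 ± 0.10 for HSP42 (adjusted p = 1.59e-05) and 1.17 ± 0.12 for BTN2 (adjusted p = 8.30e-09). For CUR1 the order was 30, 10, 60, 120, 360 and 240 min, with calls between 10 and 60 min and between 60 and 120 min. For HSP31 it was 60, 30, 120, 240, 360 and 10 min, with calls between 30 and 120, 120 and 240, and 240 and 360 min. No pair of neighbouring control groups passed for any gene.

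Against controls of the same time, which had grown to a higher density, the 6 genes were also higher. At 120 min 6 of 6 were called higher, where 33.3% of all tested genes were, with a median log2 fold of 2.94 for the 6 and -0.01 for all. At 240 min 6 of 6 were called higher, where 28.3% were, with medians of 2.58 and -0.03. At these times HSP26 had 4.20 ± 0.09 and 4.18 ± 0.09, HSP42 3.23 ± 0.10 and 2.85 ± 0.10, and HSP104 2.74 ± 0.09 and 2.31 ± 0.09. BTN2 had 3.15 ± 0.12 and 2.99 ± 0.12, CUR1 1.21 ± 0.11 and 1.12 ± 0.11, and HSP31 2.46 ± 0.09 and 2.07 ± 0.09. The largest adjusted p among these 12 values was 1.33e-08, for CUR1 at 240 min. With background as a term CUR1 was still called at both times, at 0.66 and 0.60. In the values as deposited 62.1% of all genes called at 120 min were higher, against 48.4% after quantile normalization.

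The heat effect at 240 min was smaller than that at 120 min for HSP104, with a difference of the effects of -0.43 ± 0.12 (adjusted p = 0.0262). The mean log2 level of HSP104 in heat was 12.78 at 120 min and 12.62 at 240 min, a step that did not pass the test. In controls it was 10.05 and 10.31, so the difference includes a higher control level at 240 min. HSP104 was the 1 of 6 called lower here, where 5.18% of all tested genes were. The call rested on several single arrays. It ended without replicate 1 of the controls at 120 min (-0.35), replicate 3 of the controls at 240 min (-0.38), replicate 3 of heat at 120 min (-0.38) and replicates 1 (-0.42) or 2 (-0.40) of heat at 240 min. HSP31 (-0.40 ± 0.13, adjusted p = 0.0564) and HSP42 (-0.37 ± 0.14, adjusted p = 0.0867) did not pass, but both did in the values as deposited, where 28.8% of the called genes were higher against 51.2% here. BTN2, CUR1 and HSP26 had -0.16 ± 0.17, -0.09 ± 0.16 and -0.01 ± 0.12, with 95% intervals of -0.51 to 0.18, -0.42 to 0.24 and -0.27 to 0.24.

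In cultures kept at 28 °C none of the 6 genes was called at 120 or 240 min against 0 min with limma. At 120 min 0 of the 5656 tested genes were called as well, and 0 of the 6 and 97 of all had an unadjusted p under 0.05. At 240 min 0.0707% of all genes were called, and 4 of the 6 and 220 of all had an unadjusted p under 0.05. The 4 were HSP104, at 0.25 ± 0.09 (95% interval 0.07 to 0.43), HSP26 at -0.24 ± 0.09 (-0.42 to -0.06), BTN2 at -0.26 ± 0.12 (-0.51 to -0.02) and CUR1 at -0.31 ± 0.11 (-0.55 to -0.08). Their adjusted p was 0.893 for HSP104, HSP26 and CUR1 and 1 for BTN2. HSP42 (-0.02 ± 0.10) and HSP31 (-0.02 ± 0.09) had intervals of -0.22 to 0.18 and -0.21 to 0.18.

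The Hsp70 system that hands substrates to Hsp104 was higher as well, with 10 of 10 listed genes called higher than at 0 min at all 6 heat times, where 29.0% to 40.7% of all tested genes were. Its median log2 fold was 2.17 after 10 min, 2.30 after 30 min, 1.21 after 60 min, 1.09 after 120 min, 0.98 after 240 min and 0.95 after 360 min. The stress-induced Hsp70 SSA4 had 4.89 ± 0.12 at 30 min and 3.15 ± 0.12 at 360 min, and the exchange factor SSE2 4.10 ± 0.09 and 2.57 ± 0.09. The J-domain protein SIS1, a partner of Hsp104 in disaggregation, had 1.96 ± 0.08 and 0.92 ± 0.08, and APJ1, another J-domain protein, 2.94 ± 0.11 and 0.87 ± 0.11. At 60 against 30 min 9 of the 10 fell, where 39.4% of all tested genes did. The other was SSA1, whose value is the same on all 18 heat arrays by the normalization. SSA2, among those that fell, had 20929 on all 3 arrays at 30 min and 17033 on all 3 at 60 min. These values are also set by the normalization, so its fall is a step in rank and its size is not measured. The counts and medians of the 10 genes over 0 min include SSA1 and SSA2, whose folds and SE carry the same limit. SSA1 and SSA2 are near-identical copies, and their single values are uncertain. SSA3 and SSA4 are relatives with much lower means in controls at 0 min, 317 and 445 against 12869 for SSA1 and 13420 for SSA2. Signal shared between the SSA probe sets was not tested. The mitochondrial relative of Hsp104, HSP78, had 3.04 ± 0.09 at 30 min and 2.03 ± 0.09 at 360 min. The mitochondrial ClpX homolog MCX1 had -0.17 ± 0.10 and 0.01 ± 0.10 and did not pass at either time. HSP32, HSP33 and SNO4, close relatives of HSP31, share 1 probe set and were not tested as single genes.

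**Figure D4:**
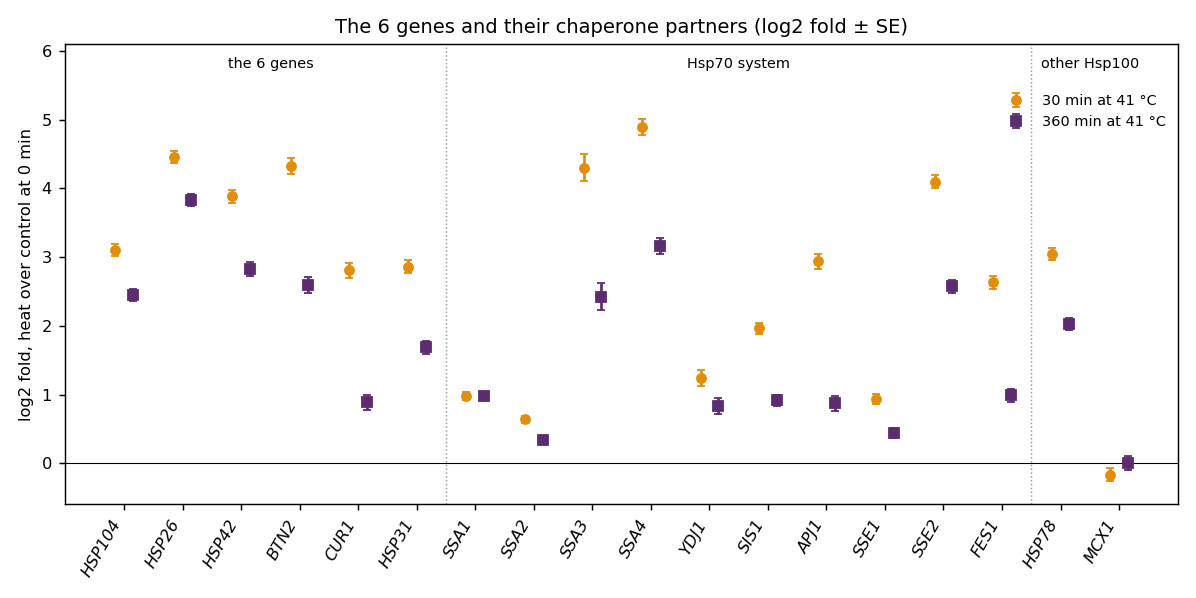
Log2 fold over control at 0 min (± SE, 3 arrays against 3) at 30 min (circles) and 360 min (squares) of heat for the 6 genes, 10 genes of the Hsp70 system and 2 other Hsp100-type genes. APJ1 has 2.94 at 30 min and 0.87 at 360 min, and FES1 2.63 and 0.99; the fold of SSA1, the brightest gene on all 18 heat arrays, is set by the normalization and reads 0.98 at both times.

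Among regulator genes, HSF1 itself passed the test over 0 min at 30 min alone of the 6 heat times (0.59 ± 0.08, adjusted p = 3.14e-07), and had 0.16 ± 0.08 at 10 min. MSN4 was higher at all 6 times, with 1.06 ± 0.08 at 10 min and 0.70 ± 0.08 at 360 min. Its folds were smaller against controls of the same time, at 0.30 ± 0.08 for 120 min and 0.42 ± 0.08 for 240 min, against 0.49 ± 0.08 and 0.76 ± 0.08 over 0 min. In controls MSN4 differed by 0.34 ± 0.08 at 240 against 0 min (adjusted p = 0.142). MSN2 was lower at 10 min (-0.46 ± 0.08) and had -0.06 ± 0.08 at 360 min, and SKN7, a partner of Hsf1, was lower at 10 min (-0.92 ± 0.07) and had -0.01 ± 0.07 at 360 min. GAC1, a regulatory subunit of protein phosphatase Glc7, had 3.12 ± 0.15 at 10 min and 1.63 ± 0.15 at 360 min. Its mean signal in controls at 0 min was 48.1. This was below the background probe sets, whose geometric mean was 66.2 to 81.4 on the control arrays. That range is from deposited values, while the signal of GAC1 is normalized. The added constant lowers the folds of GAC1, so their size cannot be set beside that of brighter genes. Of these 5 genes 2 were called higher and 2 lower at 10 min, where 72.5% of all tested genes were called in either direction, and 4 higher and 1 lower at 30 min, where 80.9% were. At 120 min 2 were higher and 2 lower, where 68.9% of all were called. At 60, 240 and 360 min 2 were higher and none lower, where 69.2%, 63.2% and 67.0% of all were called, so the counts give nothing particular to the regulators.

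Over the means of the 9 groups the 6 genes were correlated with each other, with Pearson's r from 0.77 to 0.99, as all share the step between control and heat groups. Over the 6 heat means alone r was 0.98 for BTN2 with CUR1 and 0.99 for HSP42 with BTN2. For HSP26 it was 0.62 with HSP42, 0.64 with BTN2, 0.72 with CUR1 and 0.79 with HSP104. For HSP31 it was 0.12 with BTN2, 0.13 with HSP42, 0.19 with CUR1, 0.36 with HSP104 and 0.80 with HSP26. These are descriptions over few means, which share arrays and scaling. By the same measure over 9 groups, the 3 genes outside the set most like each member were taken from 1939 genes with a highest mean above the median level, whose means spanned at least 1 on the log2 scale. HSP104 was most like the plasma membrane protein HSP30 (r = 0.997), the Hsp90 co-chaperone STI1 (0.995) and the J-domain protein YDJ1 (0.995). HSP26 was most like the Hsp90 gene HSP82 (0.997), HSP30 (0.997) and the cyclophilin CPR6 (0.992), and HSP42 like the trehalose synthase subunit TSL1 (0.998), SSA4 (0.998) and HSP78 (0.997). BTN2 was most like the cell wall protein SPI1 (0.996), TMC1 (0.996) and STF2 (0.996), and CUR1 like YNL194C (0.996), SPG4 (0.996) and the catalase CTT1 (0.993). HSP31 was most like YCL048W-A (0.988), the vacuolar transporter VMR1 (0.986) and the Ran-type GTPase GSP2 (0.986), at lower r than the genes found for the other 5.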

How the data were processed

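The series compares 6 times at 41 °C with 3 control times at 28 °C, 3 arrays each. The deposited table gives an intensity on a linear scale for each probe set, computed by the authors with MAS5, per the submitters' processing notes. Its version and target value are unknown here. The lowest deposited intensity was 20.

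Of 9335 probe sets, 6504 name 1 gene (all gene IDs matched the RefSeq gene table), 328 several and 2443 none, and 60 are array controls. The brightest was used for each of 315 genes with several, leaving 5656 tested genes. Array medians over these genes ran from 442 to 566, and replicate arrays correlated with r of 0.984 to 0.997. Quantile normalization was run on the tested genes. Before log2 was taken, 113.81 was added, which is the 10th percentile over the tested genes. The model was fitted with limma 3.58.1 (R 4.3.3) over all 27 arrays, 1 mean per group, eBayes with a trend, and Benjamini-Hochberg adjustment over all tested genes within each of 17 comparisons. The number of arrays limits the precision. Comparisons of neighbours in the order of levels were added to the same fit. Related pairs of genes were compared by exact permutation of arrays.

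The members and gene lists were chosen with earlier results of these data known. Named genes were the 6 members, the listed Hsp70-system, Hsp100, HSP31-related, regulator and mating-type genes, and for each member the 3 genes of highest r. Replicates are biological replicates per the labels. Whether a replicate number marks 1 culture is not stated.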

Additional observations from a re-analysis of the deposited data

Results flagged for a closer look

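The heat effect on HSP104 differed between 2 times. The difference of the time-matched effects at 240 and 120 min was -0.43 on the log2 scale, from effects of 2.31 and 2.74, and it passed the test of the difference itself. Within heat, HSP104 at 240 against 120 min differed by -0.16 ± 0.09, which did not pass. The mean log2 level in controls was 10.05 at 120 min and 10.31 at 240 min, which also entered the difference. Leaving out any of 5 of the 12 arrays ended the call.

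The probe set shared by HSP32, SNO4 and HSP33, relatives of HSP31, was outside the tests because it names several genes, and it had signal in heat above the controls. Its deposited signal had a median of 369 over the 18 heat arrays. It was 579, 374 and 418 at 10 min, 909, 802 and 751 at 30 min and 213, 192 and 202 at 360 min of heat. In controls it was 156, 162 and 164 at 0 min, 163, 135 and 178.0 at 120 min and 149, 161 and 145 at 240 min. Which of the 3 genes gave the signal was not tested.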

How the results depend on the processing

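The 48 values of the 6 genes in heat against control kept their direction in 870 alternative values and their side of the threshold in 868. The exceptions were CUR1 at 240 min (0.28) and 360 min (0.27) against 0 min with the background level as a term. Leaving out dim genes or the variance trend, fitting the compared groups alone, and a replicate or culture block leave the folds unchanged by design. In these fits the direction could not change, and only the side of the threshold could. Background did not overlap between controls and heat arrays from 30 min on, so a fit with that term cannot tell it and heat apart there. With that term fewer genes in all were called at 120 min (2509 against 0 min, 2304 against controls at 120 min) and at 360 min (2120). The calls in heat against heat were less stable, and HSP31 at 360 against 10 min reversed to -0.26 with arrays scaled to a common median. The numbers of the 6 called moved to 1 at 30 against 10 min with a common median or the background term and to 1 at 240 against 120 min in a fit of those groups alone. For the difference of heat effects they moved to 3 in the values as deposited and with quantile normalization over all probe sets, and to 2 without dim genes, with culture as a random block and with background. In a fit of the groups compared alone, 1238 genes were called at 120 against 60 min and 549 at 240 against 120 min. In controls at 240 against 0 min, 4 genes were called, 7 in the values as deposited and with culture as a block, 8 with all probe sets and 14 with background. The pair BTN2 minus CUR1 reversed to -0.0187 in the values as deposited and to -0.0229 without replicate 2 at 360 min. The cause of these differences was not tested.

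With 1 array left out, the numbers of the 6 called ran from 1 to 3 at 240 against 120 min, from 0 to 1 at 360 against 240 min and from 0 to 1 for the difference of heat effects. The numbers of all genes called ran from 791 to 1136, from 228 to 327 and from 383 to 739 there, and in controls from 0 to 4 at 120 min and from 1 to 3 at 240 min. BTN2 minus CUR1 ran from -0.0229 to 0.263. Deviations of same-numbered heat arrays correlated above 0.1 in 23 of 45 pairs (median 0.13), against 24 of 90 pairs with different numbers (median -0.04), and 42 of 90 comparisons matched best on the number. With 3 arrays to choose from in a group, 1 in 3 comparisons would match on the number without pairing. Deviations were taken from group means, so higher values for equal numbers force lower ones for different numbers. These values are no more than a hint of pairing among the heat arrays. Control arrays did not show it, with medians of -0.09 for equal and 0.07 for different numbers. Between heat and control arrays the medians were -0.004 and -0.05. Since not every pair was above 0.1 and the labels do not say what a number marks, the numbers were not taken to pair the samples. The replicate block changed no call of the 6 genes and gave 4157 calls in place of 4103 at 10 min. For the pair differences, 0.15 and 0.65, the block was added after seeing the data. It cannot move them, since each group has 1 array of each replicate number.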
